A study of Mus musculus with 8 samples.

Results

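Endothelial cells line the vessels that grow into the cortical wall from a plexus on its surface, and pericytes wrap those vessels from outside. The endothelial and pericyte genes described here are 39 genes chosen for their known roles in endothelium, the blood-brain barrier and pericytes, with earlier results of these data known. They comprise 34 endothelial genes and 5 pericyte genes, of 23420 genes listed at E11.5 and 78298 listed at E12.5. All 39 were found in both count tables, and all 39 passed the filter on low counts at each stage. The question was whether vessel genes differ between genotypes, or the genes of the blood within the vessels.

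Whole cortices were taken from Mboat7+/- and Mboat7-/- embryos of a mouse line kept on C57BL/6N, at the embryonic stages E11.5 and E12.5. Mboat7 encodes an acyltransferase that remodels phosphatidylinositol, and the knockout is global, so it covers vessels, blood and neural cells alike. The controls are heterozygous, and no wild-type cortex is in the comparison. Each genotype had 2 embryos per stage, and the 2 stages were sequenced by different providers, so genotypes were compared within a stage. Poly(A) RNA was sequenced from whole tissue, in which fewer cells of a type and less RNA per cell cannot be told apart.

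The total count per cortex lay between 20799311 and 28189771. The Mboat7 count was not lower in the libraries labelled Mboat7-/- at E11.5, with 1103 and 860 against 700 and 876. At E12.5 it was 730 and 729 against 739 and 782. The direction of each difference below therefore rests on the labels. Xist had 17875 counts in Mboat7+/- replicate 1 at E11.5 and at most 2 in each other cortex, so the sexes were not balanced at E11.5.

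Endothelial growth is driven by VEGF, which acts through Kdr, and vessels are stabilized by angiopoietins, which act through Tek. In the developing brain, Wnt7a and Wnt7b from neural cells reach the endothelium through a complex that includes Adgra2 and Reck, and this signal both guides vessel entry and starts the barrier. Tight junctions (Cldn5, Ocln) and the lipid transporter Mfsd2a mark the barrier, whereas Plvap marks vessels that still leak, and pericytes are recruited through Pdgfrb.

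Each of the 39 genes had counts in every cortex. Any tissue with vessels can hold RNA of these genes. How much of it came from cells other than endothelium and pericytes was not tested. As a check of neural tissue, 12 genes of cortical progenitors and neurons had a summed level between 4186 and 5339 CPM over all cortices. The 12 include Emx2, Pax6 and Tbr1, but also general neural genes such as Sox2, Nes and Tubb3. Their sum therefore does not tell cortex from other brain regions. Levels in CPM, the count of a gene scaled to a common library size, were divided by the length of each gene's exons to compare genes. At E11.5 the highest mean level over the 4 cortices was that of Plvap, at 24.5 CPM per kb, followed by Cdh5 at 18.01 CPM per kb and Cldn5 at 15.8 CPM per kb. At E12.5 Cldn5 was highest, at 21.1 CPM per kb, and Plvap was sixth, at 10.7 CPM per kb. The Cldn5 and Plvap ranges over cortices did not overlap at either stage, and their order was opposite. The lowest level per length was that of Ocln at E11.5, at 0.502 CPM per kb, and of Esm1 at E12.5, at 0.479 CPM per kb. Stage and sequencing provider cannot be told apart in these orders.

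At E11.5, most of the 39 genes were slightly higher in the cortices labelled Mboat7-/-, but none was called different. The median log2 fold change was 0.13, with 29 of 39 genes higher, beside a median of -0.01 over the 14935 genes tested. The summed level of the 34 endothelial genes was 925 and 870 CPM in the Mboat7+/- cortices and 1056 and 956 CPM in the cortices labelled Mboat7-/-, a ratio of means of 1.12. Both labelled cortices lay above both controls in this sum. With the quasi-likelihood method of edgeR and adjustment for the false discovery rate (FDR), 0 of 39 genes had an FDR under 0.05, beside 0.0% of all genes tested, and the smallest adjusted p among them was 0.174. Before adjustment, 5 genes (Adgra2, Vwf, Cdh5, Ptprb and Fli1) had a p under 0.05, all higher. These are 12.8% of the 39, beside 14.1% of all genes tested. Both labelled cortices were above both controls for 14 genes, 35.9% of the 39 beside 23.1% of all genes tested, and below them for 1 gene, 2.56% beside 23.2%. DESeq2 called 1 of the 39 genes, Adgra2, beside 1.12% of all genes tested. With a block for the replicate number, which is also the batch number of the labels, Adgra2 was again the 1 gene called, beside 3.38% of all genes tested. Without Mboat7+/- replicate 1 the median was 0.22. With each cortex left out in turn it lay between 0.09 and 0.22.

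At E12.5, the endothelial genes lay closer together between genotypes than at E11.5, and the largest difference was in a pericyte gene. The median log2 fold change of the 39 genes was 0.08, with 24 higher, beside 0.00 over the 16326 genes tested. The summed endothelial level was 723 and 708 CPM in the Mboat7+/- cortices and 737 and 728 CPM in the cortices labelled Mboat7-/-, a ratio of means of 1.02. In edgeR, 0 of 39 genes had an FDR under 0.05, beside 0.0184% of all genes tested, and 0 were called by DESeq2, beside 0.0613%. Before adjustment, Rgs5 and Mfsd2a had a p under 0.05, both higher. These 2 genes are 5.13% of the 39, beside 4.23% of all genes tested. Both labelled cortices were above both controls for 11 genes, 28.2% of the 39 beside 16.8% of all genes tested, and below them for 2 genes, 5.13% beside 15.2%. With the replicate block, Rgs5 was the 1 gene called, beside 0.196% of all genes tested. The median was 0.03 without Mboat7+/- replicate 2 and 0.04 without labelled replicate 2. The log2 fold change of Rgs5 lay between 0.35 and 1.03 with each cortex left out in turn.

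**Figure D1:**
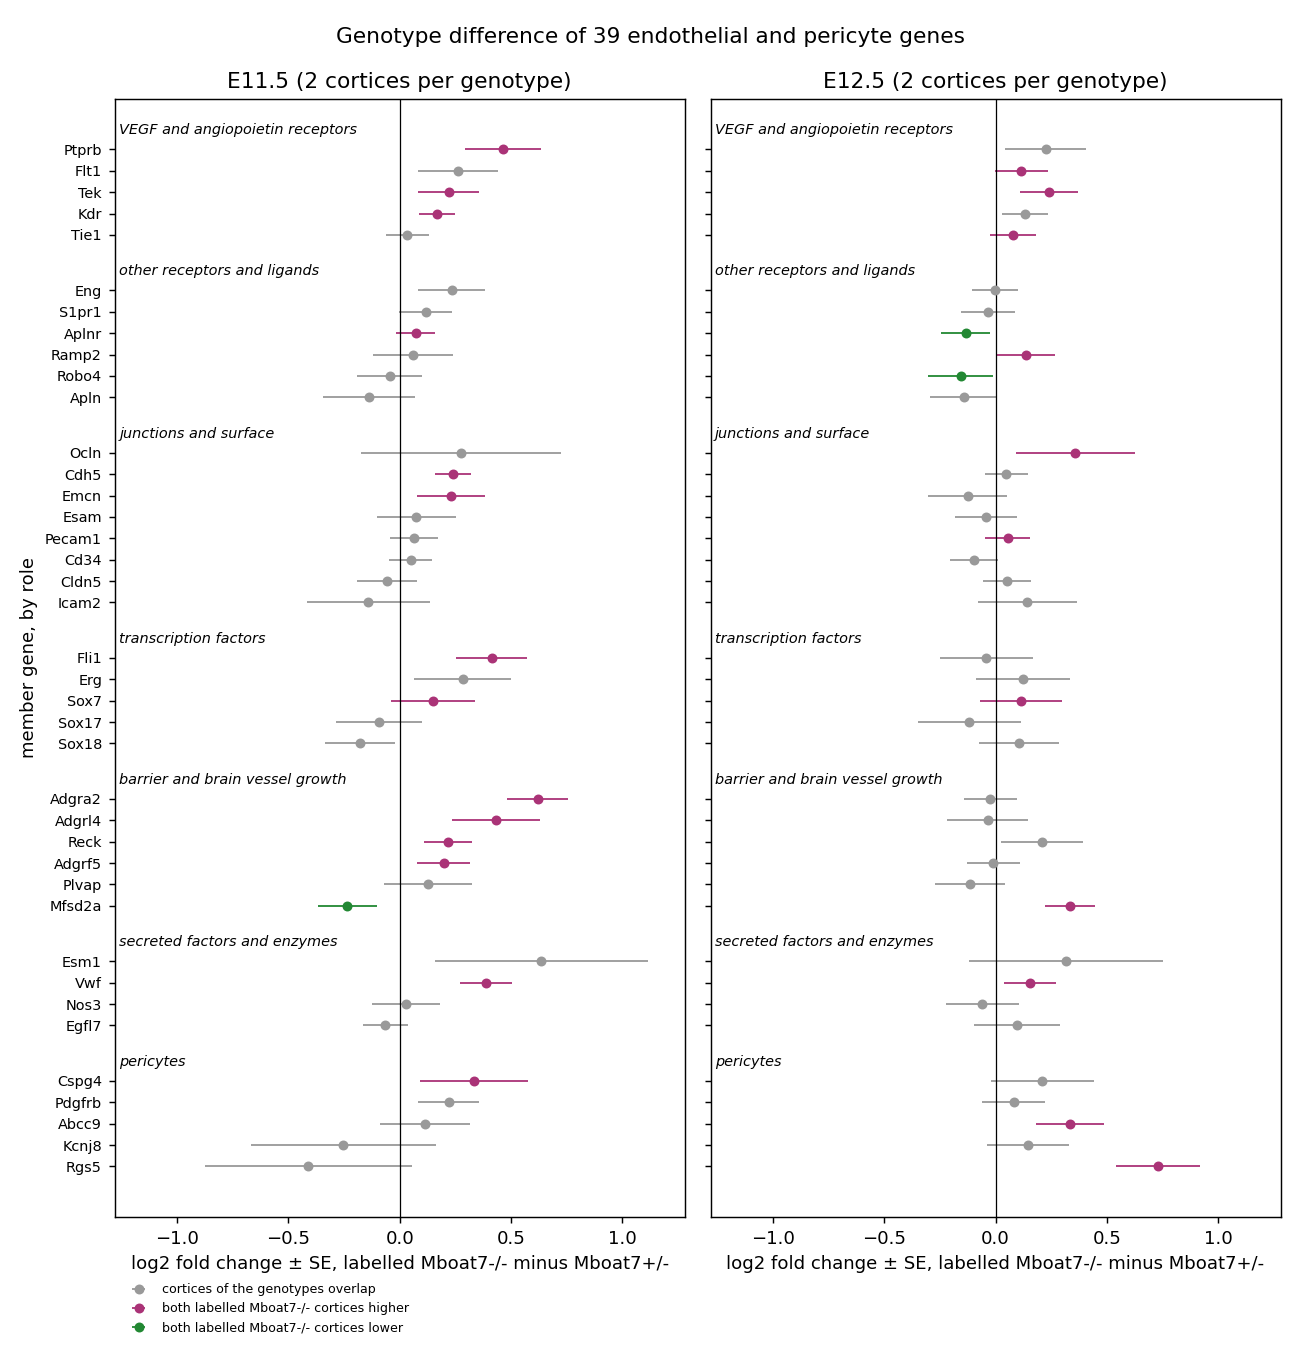
Log2 fold change with its standard error (horizontal axis) of each of the 39 genes (vertical axis, grouped by role) at E11.5 and E12.5, from edgeR's fit on 2 cortices per genotype; color shows whether the cortices of the genotypes overlap. All 5 VEGF and angiopoietin receptor genes lie right of 0 at both stages, Mfsd2a lies left of 0 at E11.5 and right of it at E12.5, and Rgs5 stands farthest out at E12.5.

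The receptor tyrosine kinases of the VEGF and angiopoietin pathways and the phosphatase Ptprb, which acts on Tek, are 5 of the 39 genes. All 5 were higher in the cortices labelled Mboat7-/- at both stages, and none was called. Of all 39 genes, 17 were higher at both stages, beside 29.2% of the 13656 genes tested at both. Of the 5 receptor and phosphatase genes, Flt1 has an entry in the RefSeq promoter table (GRCm38.p6) without CAGGAA or CCGGAA, the ETS letters searched. Other letters around the GGAA that both share were not searched. Ptprb has no entry. The other 3 (Kdr, Tek and Tie1) have an entry with the searched letters. Each is shown because ETS factors such as Erg and Fli1 are members and regulators of endothelial genes. The 250 bases upstream of the annotated start are printed 5′ to 3′ on the strand of the gene, with each CAGGAA or CCGGAA, or its reverse complement TTCCTG or TTCCGG, in capitals. Kdr is at chr5:75978456-75978705, minus strand. Tek is at chr4:94739039-94739288, plus strand. Tie1 is at chr4:118489850-118490099, minus strand.
Kdr: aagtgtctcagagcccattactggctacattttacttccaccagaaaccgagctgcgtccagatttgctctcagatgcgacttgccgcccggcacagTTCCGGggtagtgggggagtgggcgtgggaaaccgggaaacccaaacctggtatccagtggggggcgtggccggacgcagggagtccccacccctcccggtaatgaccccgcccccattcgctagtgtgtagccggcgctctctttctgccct
Tek: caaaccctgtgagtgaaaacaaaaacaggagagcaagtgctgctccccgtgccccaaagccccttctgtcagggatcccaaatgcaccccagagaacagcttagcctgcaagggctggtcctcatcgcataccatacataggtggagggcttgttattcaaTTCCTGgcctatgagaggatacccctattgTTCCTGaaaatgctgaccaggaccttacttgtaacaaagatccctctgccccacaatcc
Tie1: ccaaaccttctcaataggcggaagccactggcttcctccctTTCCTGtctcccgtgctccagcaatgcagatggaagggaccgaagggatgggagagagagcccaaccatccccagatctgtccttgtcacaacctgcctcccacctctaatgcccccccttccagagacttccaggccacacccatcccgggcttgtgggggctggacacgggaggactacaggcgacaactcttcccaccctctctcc

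The letters CAGGAA occurred on either strand in 15 of 28 promoters of the 22 member genes found in that table (53.6%), and in 25.7% of all 32851 promoters. CCGGAA occurred in 3 of the 28 (10.7%), and in 12.03% of all. The 2 motifs share the letters GGAA and cannot match at the same place. The SOX letters ACAATG occurred in 1 (3.57%, against 10.7% of all) and the TCF/LEF letters CTTTGA in 5 (17.9%, against 13.8% of all). Several genes contribute more than 1 promoter, and these matches describe letters, not binding.

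Tek, the angiopoietin receptor, was at 18.7 and 18.9 CPM in the E11.5 Mboat7+/- cortices and at 23.3 and 20.3 CPM in those labelled Mboat7-/-. The E12.5 values of Tek were 15.4 and 14.9 CPM against 17.9 and 17.9 CPM. The genotypes did not overlap at either stage, which held for 3 of the 39 genes with the same direction (Tek, Sox7 and Vwf) and for 4.77% of the 13656 genes tested at both stages. The 2 Tek differences were 0.22 (SE 0.14) and 0.24 (SE 0.13) on the log2 scale. Neither was significant (edgeR, adjusted p = 0.506 and 0.954).

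Kdr, the main VEGF receptor, was at 69.7 and 65.0 CPM in E11.5 Mboat7+/- cortices and at 76.0 and 75.2 CPM in the labelled ones. The E12.5 values of Kdr were 64.7 and 61.8 CPM against 64.1 and 74.7 CPM, so that 1 labelled cortex lay within the controls. The log2 fold changes were 0.17 (SE 0.08) and 0.13 (SE 0.10). Flt1, which binds VEGF and limits its action on Kdr, was at 22.2 and 15.7 CPM against 24.0 and 20.8 CPM at E11.5. At E12.5 Flt1 was at 20.1 and 22.2 CPM against 22.7 and 23.1 CPM. Its genotypes overlapped at the first stage and not at the second, where the log2 difference was 0.12 (SE 0.12). Tie1, an orphan partner of Tek, was at 43.1 and 46.5 CPM against 47.8 and 44.0 CPM at E11.5. At E12.5 Tie1 was at 35.1 and 33.0 CPM against 35.8 and 36.2 CPM, a log2 difference of 0.08 (SE 0.10). Ptprb was at 9.46 and 9.40 CPM in the E11.5 controls and at 12.9 and 13.1 CPM in the labelled cortices, a log2 difference of 0.46 (SE 0.17). At E12.5 the Ptprb genotypes overlapped, with 10.6 and 7.91 CPM against 10.2 and 11.3 CPM.

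Of the 6 other receptors and ligands, 4 were higher at E11.5 and 1 at E12.5, and none had an unadjusted p under 0.05 at either stage. Aplnr, the receptor for the sprouting factor Apln, was at 52.1 and 51.1 CPM in E11.5 controls and at 55.3 and 53.1 CPM in the labelled cortices. The E12.5 values of Aplnr were 44.5 and 44.4 CPM against 43.6 and 37.4 CPM. Both labelled cortices were thus above the controls at E11.5 and below them at E12.5, by log2 differences of 0.07 (SE 0.09) and -0.13 (SE 0.11). The log2 fold changes of Eng, a TGF-beta co-receptor, S1pr1, a sphingosine 1-phosphate receptor, and Ramp2, a partner of the adrenomedullin receptor, lay between -0.03 and 0.23 over both stages. Robo4, an endothelial guidance receptor, and Apln were lower at both stages, by between -0.05 and -0.16 on the log2 scale.

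Among the 8 junction and surface genes, 6 were higher at E11.5 and 5 at E12.5, and Cdh5 had the only unadjusted p under 0.05. Cdh5, the cadherin of endothelial junctions, was at 72.5 and 66.5 CPM in the E11.5 Mboat7+/- cortices and at 82.0 and 81.8 CPM in those labelled Mboat7-/-. The log2 difference was 0.24 (SE 0.08), and it did not hold up against adjustment (edgeR, adjusted p = 0.261). At E12.5 Cdh5 was at 51.7 and 47.8 CPM against 51.9 and 51.0 CPM, with overlap. Pecam1, the adhesion molecule used to stain vessels, was at 40.5 and 37.8 CPM against 43.5 and 38.1 CPM at E11.5. At E12.5 Pecam1 was at 38.1 and 37.2 CPM against 38.2 and 40.0 CPM, and its log2 differences were 0.06 (SE 0.11) and 0.05 (SE 0.10). Both are smaller than their standard errors, and the genotypes overlapped at E11.5 and not at E12.5. The sign of Pecam1 was reversed at both stages once a trend with length and GC content was removed. At E12.5 that correction also lowered the median over all genes tested. Cldn5, the main claudin of the barrier, was at 23.6 and 22.1 CPM against 20.4 and 23.6 CPM at E11.5. At E12.5 Cldn5 was at 28.6 and 30.1 CPM against 29.8 and 31.0 CPM. Its genotypes overlapped at both stages. Ocln, another tight junction protein, was at 2.49 and 1.44 CPM against 2.93 and 1.62 CPM at E11.5, with overlap. The E12.5 level of Ocln was 3.02 and 2.55 CPM against 3.12 and 4.02 CPM, without overlap and with a log2 difference of 0.36 (SE 0.27). The log2 fold changes of Esam, Icam2, Emcn and Cd34, all endothelial surface proteins, lay between -0.14 and 0.23 over both stages.

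The 5 transcription factors were split. Fli1, an ETS factor, was at 16.1 and 14.3 CPM in E11.5 controls and at 22.1 and 18.1 CPM in the labelled cortices, a log2 difference of 0.41 (SE 0.16; edgeR, adjusted p = 0.304). At E12.5 Fli1 was at 6.34 and 5.55 CPM against 6.33 and 5.21 CPM. The E11.5 genotypes did not overlap and the E12.5 genotypes did. Erg, the other ETS factor, had log2 differences of 0.28 (SE 0.22) and 0.12 (SE 0.21). Of the SOX factors that act in vessel and lymphatic endothelium, Sox7 was higher at both stages, Sox17 was lower at both, and Sox18 went from -0.18 to 0.10, all within -0.18 and 0.15 on the log2 scale.

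The genes of the barrier and of brain vessel growth held the clearest difference at E11.5 and a gene whose sign turned between stages. Adgra2, the Wnt7 co-receptor, was at 73.3 and 67.6 CPM in the E11.5 Mboat7+/- cortices and at 125 and 90.7 CPM in those labelled Mboat7-/-. Both labelled cortices were above both controls, replicate 1 by far. The log2 fold change was 0.62 (SE 0.14), a 1.54-fold difference (edgeR, adjusted p = 0.174). The adjusted p was 0.00258 with the replicate block and 0.00339 in DESeq2, and it was 0.052 with the block once a trend with length and GC content was removed. The log2 fold change was 0.37 without labelled replicate 1 and 0.83 without labelled replicate 2. At E12.5 Adgra2 was at 28.5 and 25.3 CPM against 25.2 and 27.7 CPM, with overlap and a log2 difference of -0.02 (SE 0.12). Reck, which recognizes Wnt7 together with Adgra2, was at 27.6 and 27.5 CPM against 33.0 and 31.0 CPM at E11.5, without overlap, a log2 difference of 0.22 (SE 0.11). The E12.5 level of Reck was 11.3 and 8.28 CPM against 10.54 and 12.05 CPM, with overlap and a log2 difference of 0.21 (SE 0.18).

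Mfsd2a, which carries lysophosphatidylcholine with docosahexaenoic acid across the barrier and holds down transcytosis, was at 22.2 and 25.3 CPM in the E11.5 controls and at 20.8 and 19.7 CPM in the labelled cortices. The E12.5 values of Mfsd2a were 22.1 and 22.3 CPM against 28.4 and 27.5 CPM. It was thus below both controls at E11.5 and above both at E12.5. The log2 differences were -0.24 (SE 0.13) and 0.33 (SE 0.11), and neither was significant after adjustment (edgeR, adjusted p = 0.461 and 0.954). In the fit of stage by genotype over all 8 cortices, the difference between these differences was 0.57 (SE 0.16), with an unadjusted p of 0.00448 and an adjusted p of 0.755 in edgeR. Plvap, found where the barrier is still open, was at 52.3 and 41.4 CPM against 62.0 and 39.1 CPM at E11.5. At E12.5 Plvap was at 21.4 and 22.7 CPM against 23.8 and 16.9 CPM. The labelled cortices enclosed the controls at both stages, and the log2 differences were 0.13 (SE 0.20) and -0.11 (SE 0.16). Adgrl4, an adhesion receptor of sprouting endothelium, was at 7.57 and 7.06 CPM against 9.44 and 10.3 CPM at E11.5, a log2 difference of 0.43 (SE 0.20). The E12.5 level of Adgrl4 was 10.1 and 7.82 CPM against 8.89 and 8.56 CPM, with overlap. Adgrf5, a related receptor, had log2 differences of 0.20 (SE 0.12) and -0.01 (SE 0.12).

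Of the 4 secreted factors and enzymes, 3 were higher at each stage. Vwf, the clotting factor carrier made by endothelium, was at 22.6 and 21.8 CPM in E11.5 controls and at 28.5 and 29.7 CPM in the labelled cortices. At E12.5 Vwf was at 21.7 and 23.5 CPM against 24.99 and 25.3 CPM. Neither stage had overlap, and the log2 differences were 0.39 (SE 0.12) and 0.15 (SE 0.12; edgeR, adjusted p = 0.219 and 0.954). Egfl7, a matrix factor of growing vessels, and Nos3, the endothelial nitric oxide synthase, differed by between -0.07 and 0.10 on the log2 scale over both stages. Esm1, a tip cell product, was at most 2.86 CPM in any cortex and had the largest standard error at both stages, 0.48 and 0.44.

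**Figure D2:**
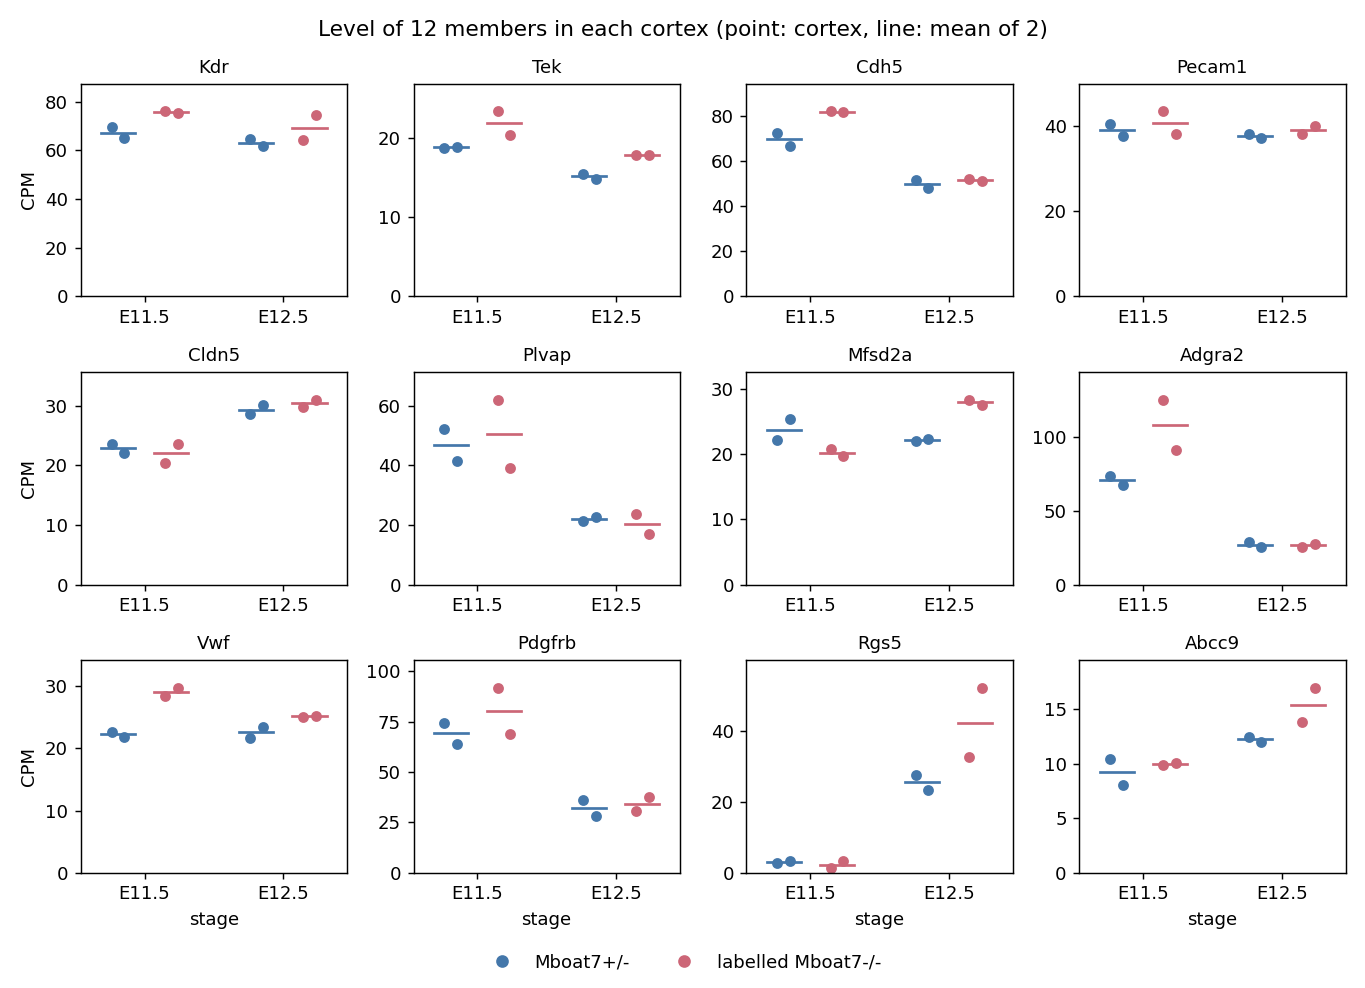
Level in CPM (vertical axis, from 0) of 12 of the 39 genes in each cortex by stage (horizontal axis), with blue points for Mboat7+/- and red points for cortices labelled Mboat7-/-, and a line at the mean of the 2 cortices; stages come from different providers and are not compared. The largest differences between genotype means are those of Adgra2 at E11.5 (125 and 90.7 CPM against 73.3 and 67.6 CPM) and Rgs5 at E12.5 (32.4 and 52.1 CPM against 27.6 and 23.4 CPM). In both genes 1 labelled cortex stands far above the other. Pecam1 and Cldn5 lie close together.

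The 5 pericyte genes gave no common direction at E11.5, where 3 were higher, and were all higher at E12.5, with median log2 fold changes of 0.12 and 0.21. Rgs5, a regulator of G protein signalling enriched in pericytes, was near the lower end at E11.5, at 2.68 and 3.21 CPM against 1.20 and 3.40 CPM. At E12.5 it was at 27.6 and 23.4 CPM in the Mboat7+/- cortices and at 32.4 and 52.1 CPM in those labelled Mboat7-/-. Both labelled cortices were above the controls at E12.5, replicate 2 by far. The log2 fold change was 0.73 (SE 0.19), a 1.66-fold difference (edgeR, adjusted p = 0.940). The adjusted p was 0.0126 with the replicate block and 0.473 with the block once a trend with length and GC content was removed. The log2 fold change was 0.35 without labelled replicate 2, 1.03 without labelled replicate 1 and 0.85 without Mboat7+/- replicate 1.

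Pdgfrb, the receptor through which endothelial PDGF-B recruits pericytes, was at 74.4 and 63.9 CPM against 91.8 and 68.6 CPM at E11.5. At E12.5 Pdgfrb was at 36.1 and 28.4 CPM against 30.8 and 37.5 CPM. The genotypes overlapped at both stages, with log2 differences of 0.22 (SE 0.14) and 0.08 (SE 0.14). The E11.5 difference of Pdgfrb was 0.41 without labelled replicate 2 and -0.01 without labelled replicate 1. Cspg4, the NG2 proteoglycan, was at 6.92 and 4.98 CPM against 7.64 and 7.12 CPM at E11.5, and at 6.0 and 5.37 CPM against 5.29 and 7.85 CPM at E12.5. It overlapped only at E12.5. Abcc9 and Kcnj8, which together form the ATP-sensitive potassium channel of pericytes, were both higher at E12.5, with log2 differences of 0.33 (SE 0.15) and 0.15 (SE 0.19). Abcc9 was then at 12.4 and 11.98 CPM against 13.8 and 16.9 CPM, without overlap, whereas at E11.5 it was at 10.4 and 8.08 CPM against 9.83 and 10.04 CPM, with overlap. Labelled replicate 2 had the highest level of all 5 pericyte genes at E12.5, and Mboat7+/- replicate 2 the lowest level of 4 of the 5.

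Over all 39 genes, 17 were higher at both stages and 3 were lower at both, beside 29.2% and 29.5% of the 13656 genes tested at both. Mfsd2a and Aplnr, 2 of the 39, had no overlap in opposite directions, as did 5.15% of these genes. In the fit of stage by genotype, 0 of 39 had an FDR under 0.05 in edgeR or in DESeq2. In edgeR, 2 genes, Mfsd2a and Adgra2, had an unadjusted p under 0.05, as did 5.45% of the 15026 genes tested. For Adgra2 the E12.5 difference was below the E11.5 difference by 0.64 on the log2 scale (a change of -0.64, SE 0.21, adjusted p = 0.863 in edgeR). The change for Rgs5 was 1.13 (SE 0.55, unadjusted p = 0.0627 in the same fit).

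Blood genes were lower in the cortices labelled Mboat7-/- at both stages, by a larger factor than the vessel genes differed, but with a wide spread between cortices. Their summed level, mostly hemoglobin mRNA of circulating red cells, was 7040 and 5298 CPM in the E11.5 Mboat7+/- cortices and 3692 and 3927 CPM in those labelled Mboat7-/-. This is a ratio of means of 0.618, without overlap. At E12.5 the sum was 5343 and 7771 CPM against 5439 and 3834 CPM, a ratio of 0.707 with overlap. The two-sided exact permutation test of the blood sum gave p = 0.333 at E11.5, the smallest that 2 against 2 cortices allow, and p = 0.667 at E12.5. Of the blood genes tested, 13 of 14 were lower at E11.5 and 15 of 16 at E12.5, with median log2 fold changes of -0.54 and -0.52. None had an FDR under 0.05 in edgeR, beside 0% and 0.0184% of all genes tested. Before adjustment, 9 (64.3%) and 8 (50%) had a p under 0.05, beside 14.1% and 4.23% of all genes tested. With the replicate block edgeR called 6 at E11.5, all lower, beside 3.38% of all genes tested. At E12.5 it called 1 (Hbb-bh1, an embryonic globin, also lower), beside 0.196%. DESeq2 called 3 and 0, beside 1.12% and 0.0613%. The medians of the blood genes rest on single cortices in part. They were -0.25 without Mboat7+/- replicate 1 and -0.81 without Mboat7+/- replicate 2 at E11.5. At E12.5 they were -0.83 and -0.23 without these control replicates, and -0.31 without labelled replicate 2. The E12.5 log2 ratio of the blood sums, -0.50 over all 4 cortices, was -0.20 without Mboat7+/- replicate 2, -0.27 without labelled replicate 2 and -0.77 without labelled replicate 1. Hbb-y, an embryonic beta-type globin, had log2 differences of -0.75 (SE 0.10) and -0.57 (SE 0.23), and at E11.5 its adjusted p was 0.134 in edgeR and 0.000204 with the block. Hba-a1 and Hba-a2 are listed at 0 in the E11.5 table, and near-identical globin copies can share reads, so the sums are compared only within a stage.

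Relative to the endothelial genes, the blood sum was 7.61 and 6.09 times the endothelial sum in E11.5 controls and 3.497 and 4.11 times in the labelled cortices. At E12.5 it was 7.40 and 10.97 times against 7.38 and 5.27 times. The ratio was lower in both labelled cortices than in both controls at each stage, although the nearest pair at E12.5, at 7.38 and 7.40, hardly differed. The pericyte sum was 101 and 84.2 CPM against 113 and 95.7 CPM at E11.5, and 89.6 and 75.8 CPM against 89.5 and 123 CPM at E12.5, with overlap at both stages. At E11.5 it was mostly Pdgfrb, with a mean of 69.1 of 92.8 CPM in controls and 80.2 of 104.5 CPM in the labelled cortices.

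**Figure D3:**
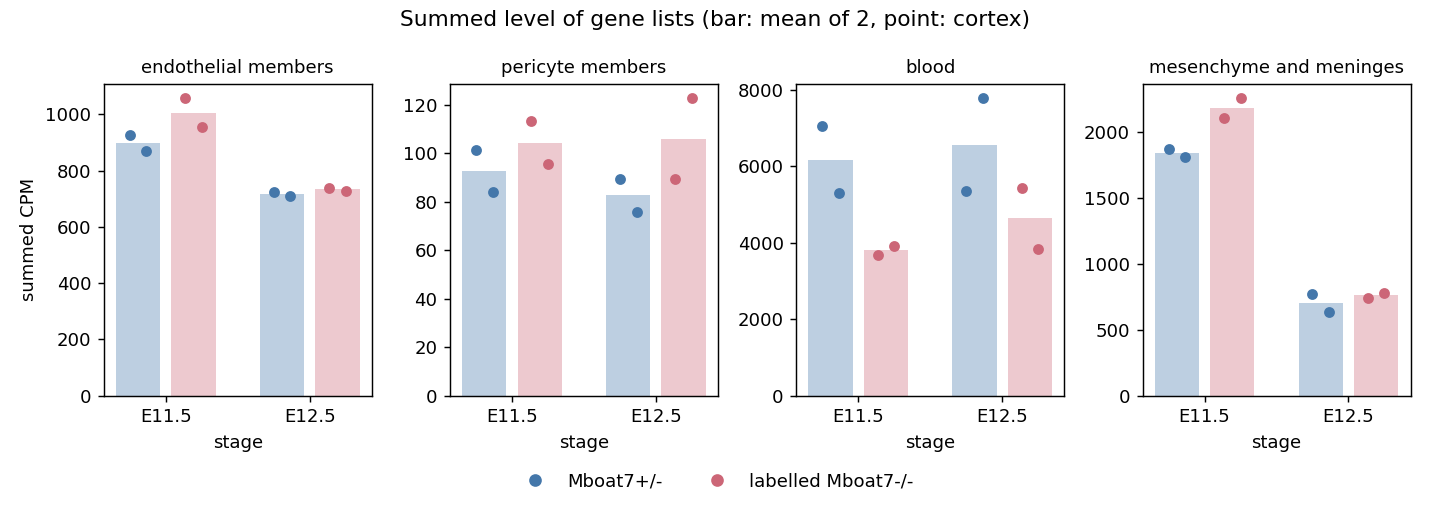
Summed CPM (vertical axis, from 0, its scale differing between panels) of the 34 endothelial genes, the 5 pericyte genes, the blood list and the mesenchyme and meninges list in each cortex by stage (horizontal axis), with points for cortices and bars for the mean of 2. The endothelial means differ between genotypes by 12.1% and 2.42%, whereas the blood mean at E11.5 is 0.618 of the control mean.

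A list of 38 further endothelial genes, among them Slc2a1, the glucose transporter of the barrier, had a median log2 fold change of 0.04 at E11.5, with 21 higher. At E12.5 its median was 0.09, with 24 higher. The part of other cells, blood cells among them, in the RNA of this list was not tested. The mesenchyme and meninges list was also higher, with a sum of 1873 and 1817 CPM in E11.5 controls and 2109 and 2258 CPM in the labelled cortices. Of its 12 genes 10 were higher at E11.5, with a median log2 fold change of 0.26, and none of its defining markers, such as Col3a1 and Col1a2, was at 0. The 18 further mural genes had a median of 0.23 at E11.5, with 15 of 17 tested higher. In contrast, 11 of 12 genes of cortical progenitors and neurons were lower at E11.5, with a median of -0.21. Their sum overlapped, at 5130 and 5339 CPM in controls and 4186 and 5236 CPM in the labelled cortices. At E12.5, 7 of 12 cortical, 9 of 12 mesenchyme and meninges and 11 of 16 further mural genes tested were higher. Their medians were 0.02, 0.18 and 0.16. None of these 4 lists had a gene with an FDR under 0.05 in edgeR at E11.5. With the replicate block 1 further endothelial gene, 6 mesenchyme and meninges genes, 5 further mural genes and 2 cortical genes were called there, and DESeq2 called 0, 2, 1 and 0. The shares over all genes tested at E11.5 were 0% in edgeR without the block, 3.38% with it and 1.12% in DESeq2. The part of these tissues in the E11.5 differences of the 39 genes was not tested. Labelled replicate 1 had the highest level of 19 of the 34 endothelial genes at E11.5, and without it the median over the 39 genes was 0.10, with 26 higher.

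**Figure D4:**
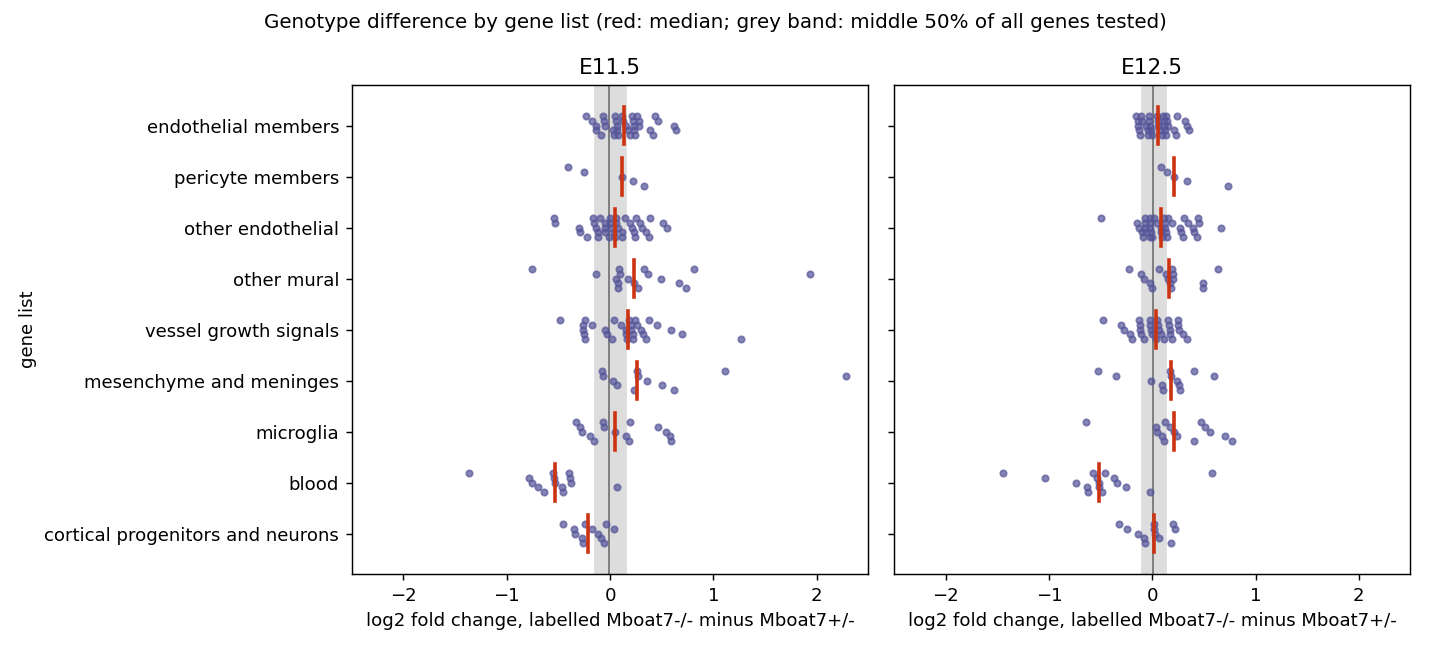
Log2 fold change (horizontal axis) of each gene of 9 lists (vertical axis) at E11.5 and E12.5, with a red bar at the list's median and a grey band between the quartiles of all genes tested. Left of the band lie 13 of 14 blood genes at E11.5 and 14 of 16 at E12.5, whereas 16 and 20 of the 34 endothelial genes lie within it and 16 and 8 lie to its right.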

How the data were processed

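The authors deposited 2 tables of raw counts, 1 per stage, in which each embryo has a column and no value is normalized. The submitters' processing notes name HISAT2, Subread, mm10 and GRCm39, without versions, and which build belongs to which table is not given in the sources used here. E11.5 genes are listed by symbol and E12.5 genes by Ensembl identifier, and these were matched through tables of gene names and synonyms. Of the genes with a count, 99.5% (E11.5) and 81.4% (E12.5) had a symbol. Adgra2, Adgrf5 and Adgrl4 stand under older symbols at E11.5.

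Each stage was fitted alone in edgeR 4.0.16 under R 4.3.3 (TMM, filterByExpr with a minimum count of 10, quasi-likelihood test, prior count 0.125), and Benjamini-Hochberg adjustment was over all genes tested. Called means an FDR under 0.05. CPM used normalized library sizes. DESeq2 1.42.0 was an alternative. A count of 3 corresponds to between 0.106 and 0.144 CPM, which covers counting error only. The fits were tested on simulated data in which the planted changes were larger than any difference of the 39 genes. That test therefore does not cover differences of their size. Exon lengths come from GENCODE M21. The labels call the samples biological replicates, and pairs differed beyond sampling noise (chi-square per degree of freedom between 8.35 and 14.3). The replicate number, also the batch in the labels, was taken to pair cortices, and their deviations from the genotype means correlated across genes at 0.05 (E11.5) and -0.10 (E12.5).

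The 39 genes, the other lists and the motifs were chosen with earlier results of these data known. Every one of the 39 is accounted for. Values in every cortex are given for 12 genes fixed by name and for the 8 with the smallest p at each stage, and other lists are named by their most abundant genes or smallest p. The fits were repeated with RLE or upper-quartile normalization, with DESeq2, without the filter or with a minimum of 10 counts in all cortices, with the replicate block, with a length and GC trend removed (splines with 5 degrees of freedom) with and without the block, and with each cortex left out in turn. Summed levels were also computed on total counts and without the most abundant gene. An exact permutation test was run on the blood sum only.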

Additional observations from a re-analysis of the deposited data

Results flagged for a closer look

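Mfsd2a was flagged because both labelled cortices lay below both controls at E11.5 and above both at E12.5. The E12.5 difference minus the E11.5 difference was 0.57 on the log2 scale (SE 0.16, unadjusted p = 0.00448, adjusted p = 0.755 from edgeR's interaction fit). Aplnr was flagged for the opposite pattern, above the controls at E11.5 and below them at E12.5, with a change of -0.21 (SE 0.14, adjusted p = 0.904 from the same fit). Both log2 differences are smaller than 0.34 in each stage, and stage cannot be told apart from sequencing provider.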

How the results depend on the processing

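With the replicate block, calls at an FDR under 0.05 went from 0 of 39 genes to 1 at each stage (Adgra2 at E11.5, Rgs5 at E12.5), and the block changed no other call among the 39. DESeq2 called 1 at E11.5. With a length and GC trend removed, the E12.5 median of the 39 genes was 0.033, that of the further endothelial genes 0.0079 and that of the vessel growth signals -0.067, while the median of all genes went to -0.06. The block with that correction gave 0.032, 0.0087 and -0.070, left 0 called at either stage and 1 gene at an unadjusted p under 0.05 at E12.5. Under these corrections Pecam1 reversed to -0.0017 at E11.5 (-0.0086 with the block) and to -0.0066 at E12.5 (-0.0066 with the block), and Cldn5 to 0.049 at E11.5 (0.050 with the block). On total counts the E12.5 endothelial log2 ratio was 0.070, against 0.035. Leaving out each cortex in turn gave 0 to 2 of the 39 called at E11.5 and 0 to 1 at E12.5, and 1 to 10 and 1 to 5 at an unadjusted p under 0.05. The median of the 39 lay between 0.086 and 0.22 at E11.5 and between 0.030 and 0.10 at E12.5, and that of the blood genes at E11.5 between -0.81 and -0.25, with a blood log2 ratio between -0.89 and -0.48. At E11.5 the medians of other lists ranged from -0.0021 to 0.095 (further endothelial), 0.14 to 0.36 (further mural), 0.24 to 0.31 (mesenchyme), 0.053 to 0.19 (microglia) and 0.031 to 0.28 (vessel growth). At E12.5 they ranged from 0.045 to 0.12, 0.10 to 0.21, -0.034 to 0.42, 0.18 to 0.36 and 0.0027 to 0.066, in the same order. Single genes that changed sign at E11.5 ranged from -0.038 to 0.15 (Pecam1), -0.024 to 0.099 (Tie1), -0.16 to 0.050 (Cldn5), -0.26 to 0.41 (Plvap), -0.0092 to 0.41 (Pdgfrb) and -1.30 to 0.20 (Rgs5). At E12.5 they ranged from -0.0062 to 0.10 (Cdh5), -0.085 to 0.27 (Pdgfrb), -0.38 to 0.11 (Plvap) and -0.10 to 0.46 (Cspg4). Of 438 values of single genes under the alternatives, 412 kept their sign and side of the threshold. In general the cause of a change was not tested. Where a fit leaves 1 cortex in a group, that cortex is taken to vary like the others. The counts of genes from these fits were not set against all genes tested, so they do not show an excess among the 39. With all cortices kept, 12.8% of the 39 had an unadjusted p under 0.05 at E11.5, beside 14.1% of all genes tested. At E12.5 these shares were 5.13% and 4.23%. With 2 cortices per group, standard errors of the 39 genes lay between 0.08 and 0.48 at E11.5 and between 0.10 and 0.44 at E12.5, so differences of this size were not resolved.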

Other observations

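Among 30 signals of vessel growth (ligands, co-receptors and guidance factors), 21 were higher in the cortices labelled Mboat7-/- at E11.5 and 17 at E12.5, with median log2 fold changes of 0.17 and 0.04 (0.03 at E11.5 without labelled replicate 1). Wnt7b, the neural ligand whose signal passes through Adgra2 and Reck, was lower at both stages, at 274 and 252 CPM against 224 and 216 CPM at E11.5 and at 174 and 199 CPM against 159 and 143 CPM at E12.5. The genotypes did not overlap, and the log2 differences were -0.26 (SE 0.07) and -0.31 (SE 0.10), neither significant after adjustment (edgeR, adjusted p = 0.187 and 0.954). With the replicate block Wnt7b was called at E11.5 (adjusted p = 0.0358), and DESeq2 gave an adjusted p of 0.0665. Cxcl12, a chemokine of mesenchyme and endothelium, was higher at both stages, at 106 and 93.7 CPM against 177 and 147 CPM at E11.5 and at 54.6 and 49.3 CPM against 56.9 and 74.1 CPM at E12.5. Its log2 differences were 0.70 (SE 0.10) and 0.33 (SE 0.13), with adjusted p = 0.163 and 0.954 in edgeR. At E11.5 Cxcl12 was called with the replicate block (adjusted p = 0.000204) and in DESeq2 (adjusted p = 1.71e-06). Of the 30 genes, edgeR called 0 without the block and 4 with it at E11.5, 0 either way at E12.5, and DESeq2 called 1 and 0. Over all genes tested, the E11.5 shares were 0% without the block, 3.38% with it and 1.12% in DESeq2. The E12.5 shares were 0.0184%, 0.196% and 0.0613%.

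Of 15 microglia and macrophage genes, 8 were higher at E11.5 and 14 at E12.5, with median log2 fold changes of 0.04 and 0.21. Without labelled replicate 1 the E11.5 median was 0.19. Mrc1, the mannose receptor of macrophages at brain borders, was at 11.99 and 10.8 CPM against 16.8 and 16.1 CPM at E11.5 and at 10.7 and 7.54 CPM against 11.2 and 15.7 CPM at E12.5. Its genotypes did not overlap at either stage, and 4.77% of the 13656 genes tested at both stages were likewise higher without overlap. The log2 differences of Mrc1 were 0.54 (SE 0.16) and 0.56 (SE 0.21), neither significant after adjustment (edgeR, adjusted p = 0.214 and 0.954). Of the 15 genes, 7 were lower in the first stage and 1 in the second. None of the 15 was called by edgeR in either stage, beside 0% and 0.0184% of all genes tested.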
